A study of Mus musculus with 672 samples.

Results

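The 10 genes described here belong to families of digestive enzymes that the exocrine pancreas makes in quantity late in its development. They are 6 trypsinogens (Prss1, Prss2, Prss3, Try4, Try5 and Try10), 3 elastases (Cela1, Cela2a and Cela3b) and the amylase gene Amy2b. The annotation used here classes the Amy2b entry as a pseudogene. The 10 were listed by name out of the 46078 Ensembl genes in the count tables, and all 10 were found there. No rule on measured values picked them, but the list was made with earlier results of these data known. The study profiled single cells of the C57BL/6 mouse embryonic pancreas by full-length RNA sequencing of the Smart-seq2 kind, 1 sorted cell per well. The labels name no transgene and no treatment, and the antibodies and gates of the sort are not given in the sources used here. The age E13.25, in days of embryonic development, was represented by 4 plates, numbered by pancreas 1 to 4. Age E15.25 was represented by 3 plates, the tip of bud 1, the tip of bud 2 and the trunk of bud 2, called tip 1, tip 2 and trunk 2. Ages follow the titles and the age label, although the extraction protocol given for the later samples mentions E13.25 embryos. Whether the plates came from separate embryos is not stated in the labels. The plates tip 2 and trunk 2 share a bud number, and only the titles of plate 4 among the E13.25 plates carry a second mouse number. The p-values below therefore rest on plate-to-plate spread, part of which may be technical.

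Acinar cells store their proteases as inactive zymogens. Trypsinogen becomes trypsin when enteropeptidase in the gut removes a short activation peptide, and trypsin in turn activates the elastases and the other pancreatic zymogens. Amylase, which cleaves starch, is secreted in active form. In the developing pancreas the branch tips first hold multipotent progenitors and later form acini, and carboxypeptidase A1 (Cpa1) marks tip cells before most digestive enzymes appear. The transcription factor complex PTF1, which contains Ptf1a and RBPJL, binds a paired E-box and TC-box in the promoters of many acinar enzyme genes.

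The trypsinogen genes lie together on chromosome 6 of GRCm38 (mm10) between chr6:41302269-41305532, which is Try4, and chr6:41521787-41525079, which is Prss2. Prss1 lies at chr6:41458932-41463786, Prss3 at chr6:41373814-41377678, Try5 at chr6:41311233-41316841 and Try10 at chr6:41354105-41357914. Cela1 lies at chr15:100674421-100687921, Cela2a at chr4:141814962-141826160, Cela3b at chr4:137420999-137430540 and Amy2b at chr3:113147656-113156727. Positions are those of whole genes in GENCODE vM21, which classes the Amy2b entry used here as an unprocessed pseudogene and the other 9 as protein coding. The 6 trypsinogen coding sequences are all 738 bases long and between 88.6% and 97.4% identical in pairs, the closest being Try4 and Try5. The 60 coding bases around the activation site, positions 40 to 99 of each coding sequence, are shown to let the reader see how little separates them. Capitals mark bases that differ from Prss1. The run gatgatgatgacaag encodes the residues after which enteropeptidase cuts.

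Prss1: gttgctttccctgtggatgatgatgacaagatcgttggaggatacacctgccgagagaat

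Prss2: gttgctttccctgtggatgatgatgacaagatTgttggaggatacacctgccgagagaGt

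Prss3: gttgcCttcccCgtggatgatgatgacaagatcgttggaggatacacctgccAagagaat

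Try4: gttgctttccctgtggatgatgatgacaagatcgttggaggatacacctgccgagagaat

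Try5: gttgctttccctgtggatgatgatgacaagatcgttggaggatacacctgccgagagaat

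Try10: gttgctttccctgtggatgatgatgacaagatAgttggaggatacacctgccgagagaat

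In this stretch Try4 and Try5 had no base that differed from Prss1, Try10 had 1, Prss2 had 2 and Prss3 had 3. Over the longest transcript, 54.9% of the 50-base windows of Prss1 occurred exactly in a transcript of another gene. That share was 66.1% for Prss3, 65.6% for Try4, 53.9% for Try5 and 40.8% for Try10, but 7.83% for Prss2. The partners were mainly other trypsinogens and the related genes Gm10334, Gm5771 and Gm5409. Amy2b shared 40.2% of its windows, mainly with Amy2a2 to Amy2a5. Cela2a shared 25.6%, all with the chymotrypsin gene Ctrc, and Cela3b shared 33.2%, all with Cela3a, while Cela1 shared none. The handling of reads with several positions is not given in the sources used here. Values of every member but Cela1 are therefore uncertain to the extent of the shared windows, least so for Prss2.

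Promoter sequence (250 bases before the start, RefSeq, GRCm38.p6) was matched for 8 of the 10 genes. The E-box form CACCTG, searched on both strands, occurred in 8 of these 8 promoters. It occurred in 17.2% of all 32851 promoters of the same length. The TC-box letters TGGGAA, which do not overlap it, occurred in 3 of 8 (Prss1, Prss2 and Cela2a) against 21.6% of all promoters. Both were present in the same 3 genes, and in 3.91% of all promoters, with no spacing between them required. In Cela2a the E-box began 218 bases before the start and the TC-box 85 bases before. Prss1, Prss2, Prss3 and Try4 are related genes, so the 8 promoters are not independent. AAGGTCA, the letters of an NR5A2 site, occurred in 2 of 8 (Prss1 and Cela1) against 4.08%. The 4 promoters below, of Prss1, Prss2, Cela1 and Amy2b, are shown as examples of trypsinogen, elastase and amylase genes. Every match is in capitals, read 5′ to 3′ towards the gene.

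Prss1, chr6:41458680-41458929, plus strand: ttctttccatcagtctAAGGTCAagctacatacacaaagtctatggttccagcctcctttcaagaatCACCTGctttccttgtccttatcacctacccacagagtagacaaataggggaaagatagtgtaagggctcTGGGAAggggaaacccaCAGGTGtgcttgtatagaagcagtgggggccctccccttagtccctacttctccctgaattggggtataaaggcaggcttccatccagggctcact

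Prss2, chr6:41521526-41521775, plus strand: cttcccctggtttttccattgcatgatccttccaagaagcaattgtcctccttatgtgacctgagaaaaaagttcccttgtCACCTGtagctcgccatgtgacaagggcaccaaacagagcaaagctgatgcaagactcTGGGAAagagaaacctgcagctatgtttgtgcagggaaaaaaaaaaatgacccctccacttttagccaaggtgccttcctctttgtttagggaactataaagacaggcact

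Cela1, chr15:100687921-100688170, minus strand: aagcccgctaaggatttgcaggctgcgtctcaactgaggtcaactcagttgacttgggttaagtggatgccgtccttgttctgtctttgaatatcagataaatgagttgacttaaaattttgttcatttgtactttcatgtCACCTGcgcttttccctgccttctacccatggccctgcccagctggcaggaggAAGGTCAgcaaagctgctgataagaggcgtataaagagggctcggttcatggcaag

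Amy2b, chr3:113156728-113156977, minus strand: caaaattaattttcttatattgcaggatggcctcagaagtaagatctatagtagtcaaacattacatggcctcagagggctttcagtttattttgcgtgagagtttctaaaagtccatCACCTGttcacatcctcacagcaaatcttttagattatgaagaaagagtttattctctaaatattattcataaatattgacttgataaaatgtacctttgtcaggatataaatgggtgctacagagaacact

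The E-box of Prss2 began 169 bases before the start and its TC-box 111 bases before. In Prss1 the E-boxes began 183 and 96 bases before the start, with the TC-box between them at 113. The single E-box began 109 bases before the start in Cela1 and 132 in Amy2b. A match of letters is a description of the sequence and was not tested against binding.

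Of 672 wells, 601 cells passed the filters (at least 100000 reads on genes, 1500 genes and at most 20% mitochondrial reads), 340 at E13.25 and 261 at E15.25. Median reads on genes per kept cell ranged from 773545 to 1526820 over the plates. Levels are given as CPM, the read count scaled to the same total of reads on genes. A cell was called Cpa1-high at 1000 CPM of Cpa1 or more, which gave 12, 6, 19 and 17 cells in E13.25 plates 1 to 4 and 43, 30 and 34 cells in tip 1, tip 2 and trunk 2. Within the gate, plate medians of Cpa1 itself were 2240 to 8072 CPM at E13.25 and 9508 to 12542 CPM at E15.25. The gate was checked against other acinar or tip markers. Plate medians of Rbpjl in Cpa1-high cells were 205 to 658 CPM at E13.25 and 777 to 1055 CPM at E15.25. Cpb1, a carboxypeptidase of the same list, had a median of 0 at E13.25. Bhlha15, also of that list, had plate medians of 0 to 86 CPM early and 192 to 361 CPM late. Of the trunk or duct markers, Sox9 had medians of 252 to 525 CPM early and 39.5 to 78.9 CPM late. Hes1 went the other way, with 106 to 332 CPM early and 351 to 672 CPM late. Spp1 overlapped between the ages (70.7 to 1000 and 64.6 to 439 CPM). The gated cells of the 2 ages thus differed in Cpa1 level and in other markers, and the part of this in the results was not tested. Cells with at least 100 CPM of the collagen gene Col3a1 and under 50 CPM of Epcam, 157 at E13.25 and 57 at E15.25, served as a mesenchymal background. In all, 3 Cpa1-high cells also met the mesenchymal gate, and results without them are given where a call changed. The median cell of E13.25 plates 1 to 3 had 27.7% to 32.5% of its reads not aligned, against 45.3% to 50.1% in the E15.25 plates and 47.2% in E13.25 plate 4. Among Cpa1-high cells, 8 of 10 immediate early genes were also higher at E15.25 (median log2 difference of the list 2.93). The unaligned share thus set E13.25 plates 1 to 3 apart from plate 4 and the late plates, while the immediate early genes differed between the ages. The part of either in the results was not tested.

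At E13.25, elastase 1 was already on in most Cpa1-high cells, while 4 of the 6 trypsinogens were near or at 0. A gene was called on in a cell at 50 CPM or more. Cela1, whose product cleaves elastin-like substrates, was on in 48 of 54 Cpa1-high cells. Its median level there was 444 CPM and its highest 4535 CPM. In this respect the name late enzyme did not hold for Cela1. Prss2, which encodes an anionic trypsinogen, was on in 18 of 54 cells, in 4 of 12, 3 of 6, 6 of 19 and 5 of 17 cells of plates 1 to 4. Cela2a was on in 7 cells, Cela3b in 6, and Try5 and Amy2b in 4 each. Prss1, Prss3, Try4 and Try10 were on in 0 of 54 cells, which allows a share of up to 5.56%. The early Cpa1-high cells were the deeper ones, with plate medians of 1386250 to 2596450 reads on genes against 697400 to 944266 in the late plates.

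The reads behind these calls differed in kind. Prss3 had 0 reads in all 340 cells of E13.25, which by counting error alone allows up to 0.0056 CPM over the 4 plates summed. Try10 had 19 reads in 6 cells and Prss1 had 35 reads in 10 cells, and all of those cells were Cpa1-high. Try4 had 39 reads in 7 cells, 5 of them Cpa1-high. By contrast Prss2 had 12820 reads in 52 cells, and 98.7% of the reads lay in Cpa1-high cells. Cela1 had 111149 reads in 189 cells, 97.4% of them in Cpa1-high cells. Try5 had 5064 reads, of which 3999 (79%) came from 1 cell of plate 4 with 803 CPM. Of the 10 genes, 9 had a read at E13.25, and 6 reached 50 CPM in any Cpa1-high cell.

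Most E13.25 Cpa1-high cells had Cela1 on, alone or with other members. There were 6 cells that had none of the 10 genes on, 25 had Cela1 alone, 13 had a pair on and 10 had at least 3, the most being 5. Every Cpa1-high cell with Prss2, Cela2a, Cela3b, Try5 or Amy2b on also had Cela1 on. As Cela1 was on in 88.9% of all 54 cells, much of this overlap follows from its share. Of the 7 cells with Cela2a on, 5 also had Prss2 on. Of the 6 with Cela3b on, 4 also had Prss2 on and 3 had Cela2a on. Amy2b was on together with Cela3b in 0 cells and with Try5 in 0 cells. The cells with 3 or more on came from every plate (3, 2, 1 and 4 cells) and their Cpa1 ranged from 1231 to 29368 CPM. The 6 cells with none had Cpa1 between 1191 and 1785 CPM, at the low end of the gate. In the 157 mesenchymal-gate cells of the same age, no member was on in any cell. Outside the Cpa1 gate, 3 cells had Cela1 on, 1 had Prss2 on and 1 had Cela2a on.

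**Figure D1:**
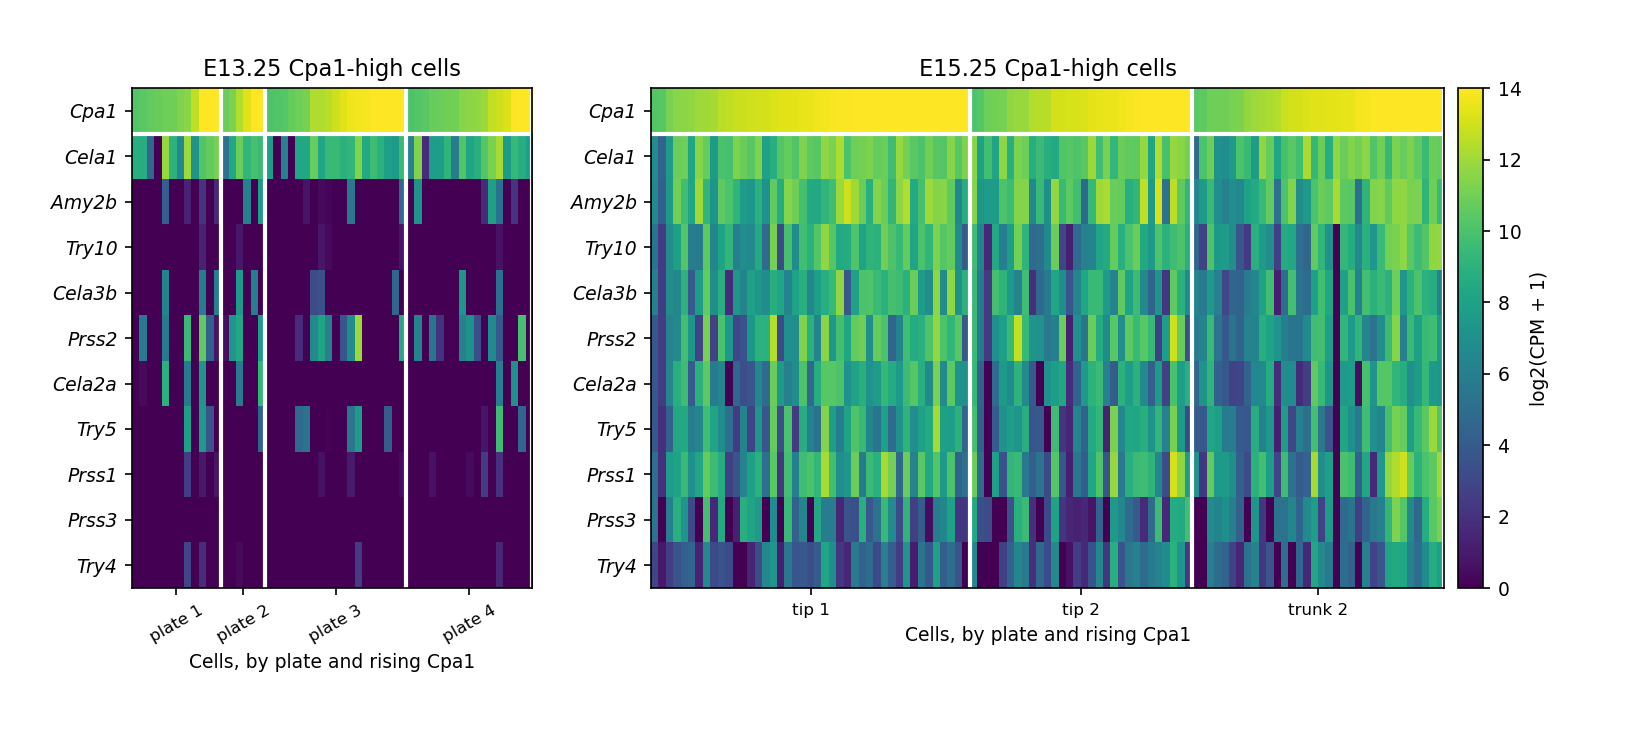
Each column is 1 Cpa1-high cell, ordered within its plate by rising Cpa1, and each row is a gene. Colour gives log2(CPM + 1). At E13.25 the Cela1 row is filled in 48 of 54 cells while Prss3, Prss1, Try4 and Try10 stay dark, and at E15.25 most rows are filled.

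Between the ages, all 10 genes were higher in summed Cpa1-high cells of every E15.25 plate than of any E13.25 plate. Of all 15366 genes tested, 5.56% separated the plates in this direction. Of the 10 members, 7 passed the test across all genes (edgeR quasi-likelihood, Benjamini-Hochberg adjusted p under 0.05, 4 against 3 plates), where 1.51% of all genes were called higher. Those that passed were Prss1, Prss2, Prss3, Try4, Try10, Cela1 and Amy2b. The median log2 difference over the 10 members was 6.33, also with Prss3 set at its lower bound, and over all genes it was -0.04.

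The trypsinogens with almost no early reads separated the ages most widely. Prss1, a trypsinogen, held 0.367, 0, 0.0779 and 0.816 CPM in E13.25 plates 1 to 4, and 1158, 1318 and 1312 CPM in tip 1, tip 2 and trunk 2. Its log2 difference was 12.40 ± 0.86 (SE; edgeR adjusted p = 0.0015). The 3 late plates lay close together, far above all 4 early plates. Try10 held 0.229, 0.21, 0.156 and 0.106 CPM early and 956, 676 and 1066 CPM late. It rose by 12.84 ± 0.34 on the log2 scale (SE; edgeR adjusted p = 3.55e-06). Prss3 held 0 CPM in the 4 early plates and 207, 193 and 480 CPM late, highest in trunk 2. Against a floor of 3 reads over the early group this was at least 11303-fold higher (edgeR adjusted p = 0.00414), a bound for counting error alone. Gm10334, which holds 65.1% of the windows of Prss3, had 244 reads in kept E13.25 cells, 235 of them in plate 4. To which gene shared reads were counted is not known. Try4 stood apart by its low level, with at most 0.55 CPM early and 38.8, 96.1 and 107 CPM late (log2 difference 8.90 ± 0.9997, SE; edgeR adjusted p = 0.00688).

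Prss2 and Try5 started from a measurable level. Prss2 held 262, 110, 83.4 and 38.4 CPM in E13.25 plates 1 to 4 and 850, 1518 and 461 CPM in tip 1, tip 2 and trunk 2. The nearest plates of the 2 ages, early plate 1 and trunk 2, differed by less than the spread among the late plates. Its log2 difference was 3.43 ± 0.65 (SE; edgeR adjusted p = 0.0421). When plates were left out 1 at a time, Prss2 stayed called without E13.25 plate 1 and missed the threshold without each of the other 6. Try5 held 36.7, 0.421, 4.63 and 142 CPM early and 416, 532 and 744 CPM late. It did not pass (log2 difference 4.09 ± 1.40, SE; edgeR adjusted p = 0.193). Without the 1 plate 4 cell that held most early Try5 reads, a choice made after seeing the data, the log2 difference was 6.27 and the edgeR adjusted p 0.0847.

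Among the elastases, Cela1 had a smaller difference than Cela2a and Cela3b, which overlapped within their errors. Cela1 held 1282, 870, 575 and 1358 CPM early and 1881, 2104 and 1844 CPM late, a log2 difference of 1.41 ± 0.28 (SE; edgeR adjusted p = 0.0486). Its call was lost in 11 of 18 alternatives, and its log2 difference ranged from 0.99 to 1.69 over all 18. Among these 18, a minimum of 10 cells per plate and leaving out E13.25 plate 2 were the same fit, counted under both names. Of the fits with 1 plate left out, the one without E13.25 plate 3 kept the call of Cela1. Cela2a, which encodes elastase 2A, held 91.8, 25.7, 0 and 19.6 CPM early and 506, 334 and 272 CPM late. It did not pass (3.94 ± 1.46, SE; edgeR adjusted p = 0.225), and the early plates spread widely. Cela3b held 28.6, 59.7, 1.91 and 9.29 CPM early and 684, 499 and 382 CPM late. It missed the threshold narrowly (4.87 ± 1.002, SE; edgeR adjusted p = 0.0526) and passed in 8 of 18 alternatives, among them the fit without the 3 cells that also met the mesenchymal gate (adjusted p = 0.0484). Amy2b held 3.21, 17.7, 2.67 and 27.8 CPM early and 1808, 2836 and 1500 CPM late (7.79 ± 0.98, SE; edgeR adjusted p = 0.0094).

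**Figure D2:**
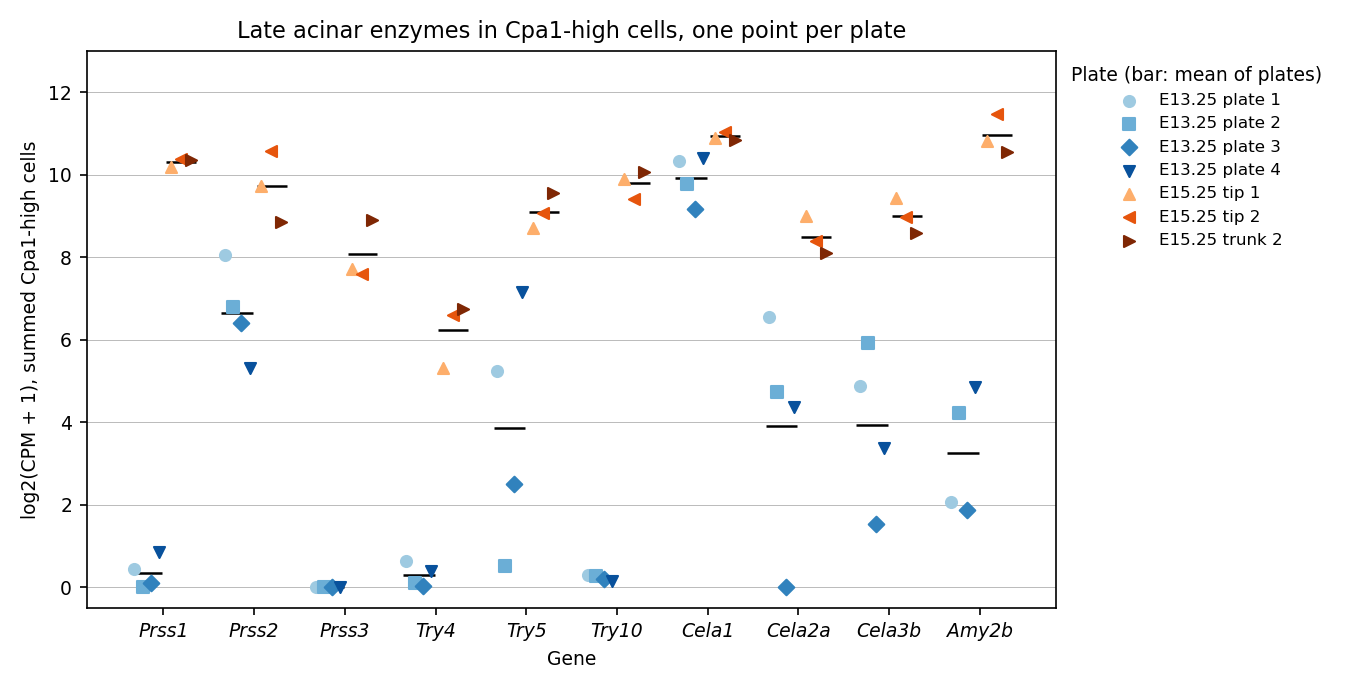
Each point is 1 plate, the vertical axis is log2(CPM + 1) of summed Cpa1-high cells, and each bar is the mean of the plates of an age on that scale. Blue E13.25 points lie at or near 0 for Prss1, Prss3, Try4 and Try10, while Cela1 sits between 575 and 1358 CPM early and between 1844 and 2104 CPM late.

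Prss1 and Try10 were called in all 18 alternative fits of Cpa1-high cells. Adding a term for E13.25 plates 1 to 3, chosen after the difference in unaligned reads was seen, left Prss1 and Try10 as the 2 members called, and left 5 genes called higher in all. In that fit the ages are compared within 1 early plate and the 3 late plates. In whole plates, all 10 members again did not overlap between the ages, as 3.84% of all genes did in this direction. There 7 of 10 members passed (Prss1, Prss2, Prss3, Try4, Try10, Cela3b and Amy2b), against 0.468% of all 20728 genes. With 1 plate left out, 2 members were called without tip 1, 3 without tip 2 or without E13.25 plate 1, 4 without E13.25 plate 2, E13.25 plate 3 or trunk 2, and 6 without E13.25 plate 4. The log2 differences of Cela1 and Cela2a were 2.18 (edgeR adjusted p = 0.08) and 5.14 (0.054), and that of Try5 was 4.47 (0.213), or 7.30 (0.0677) without the cell with most Try5 reads. Cpa1-high cells made up 7.5% to 22.1% of kept cells in the early plates and 35.3% to 49.4% in the late plates, so whole-plate sums cannot tell more such cells from more RNA per cell.

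The 10 genes together took a median of 0.0455% to 0.0846% of the reads of a Cpa1-high cell in the E13.25 plates. In the E15.25 plates the median was 0.561% to 0.59%, with up to 3.34% in 1 cell of tip 2. Per kilobase of transcript (longest transcript, mean of the 3 late plates), Cela1 and Prss1 stood highest, at 1754 ± 127 and 1569 ± 113 CPM per kilobase (SD, n = 3). Amy2b (1299 ± 444), Prss2 (1157 ± 656) and Try10 (1046 ± 234) followed and did not differ from each other beyond their spread. Try5 had 704 ± 208, Cela3b 563 ± 164, Prss3 357 ± 197 and Cela2a 346 ± 113, while Try4 was lowest at 101 ± 45.7. Over the union of all annotated exons, which is longer for Cela1, the value of Cela1 was 843 per kilobase in place of 1754, so its rank depends on the transcript model.

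At E15.25, which Cpa1-high cells held which enzyme was examined as the share of cells at 50 CPM or more. Cela1 was on in 98.2% ± 1.55 (SD, n = 3 plates) and Amy2b in 95.04% ± 2.31. Try10 (81.6% ± 6.11), Cela3b (81.3% ± 8.16), Prss2 (77.4% ± 1.45), Cela2a (71.1% ± 6.90), Try5 (67.9% ± 3.97) and Prss1 (67.7% ± 13.1) formed a broad middle in which neighbours did not differ beyond their spread. Prss3 was on in 44.1% ± 9.31 and Try4 in 33.1% ± 10.5. Prss1 varied most between plates, with 34 of 43 cells on in tip 1 (exact binomial 95% interval 63.96% to 89.96%), 16 of 30 in tip 2 (34.3% to 71.7%) and 24 of 34 in trunk 2 (52.5% to 84.9%). These intervals overlap and cover counting error alone. The median over the 10 members was 74.8% ± 3.85 (SD, n = 3 plates).

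The median level in Cpa1-high cells gave a similar picture and showed wide ranges. Amy2b had medians of 837, 823 and 871 CPM in tip 1, tip 2 and trunk 2, with single cells from 16.97 CPM to 9090 CPM. Cela1 had medians of 1635, 1328 and 1449 CPM and ranged from 21.7 to 5177 CPM. Prss1 had medians of 363, 147 and 228 CPM but reached 8718 CPM in tip 2 and was 0 in 1 cell of that plate. Prss3 had medians of 40.4, 9.84 and 55.3 CPM and reached 2513 CPM in trunk 2. Try4 had medians of 12.5, 23.1 and 30.6 CPM and never exceeded 499 CPM, so that its low share at 50 CPM went with a low level throughout. At a threshold set for each gene at 10% of its own 90th percentile, Try4 was on in 53.1% of cells, Prss3 in 44.1%, Amy2b in 70.04% and Cela1 in 88.2%.

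**Figure D3:**
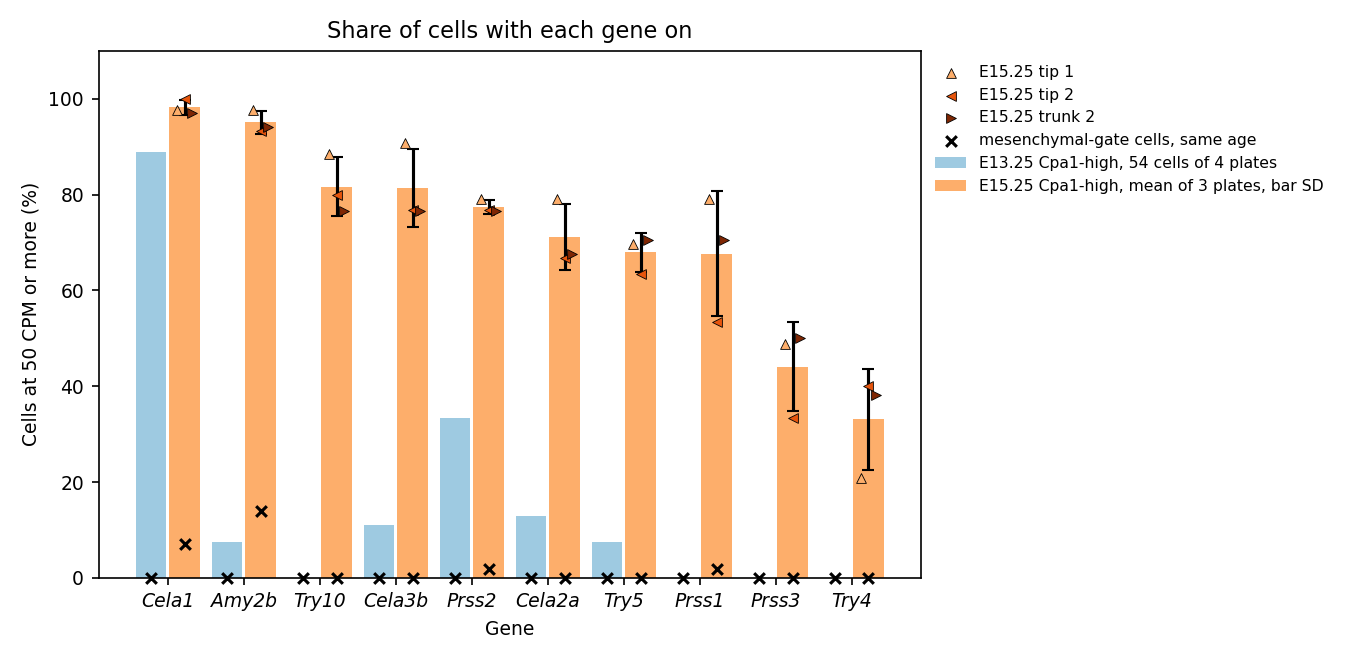
Blue bars give the percent of the 54 Cpa1-high E13.25 cells at 50 CPM or more, orange bars the mean of the 3 E15.25 plates with the SD, triangles the single plates and crosses the mesenchymal-gate cells of the same age. Cela1 stands at 88.9% early and 98.2% late, while Try10 goes with 0% early and 81.6% late.

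The background measured the same way was low but not 0. In the 57 mesenchymal-gate cells of E15.25, Amy2b was on in 8, Cela1 in 4, Prss1 in 1 and Prss2 in 1, and the other 6 genes in none. No mesenchymal-gate cell exceeded 104.2 CPM of any member. Summed over these cells, each member stood at 0.691% to 1.16% of its level in the Cpa1-high cells of the same plate. In tip 1 the 10 ratios ran from 0.912% to 1.16%, in tip 2 from 0.835% to 1.14% and in trunk 2 from 0.691% to 1.12%. The ratio was thus nearly the same for a gene at 2836 CPM as for one at 38.8 CPM. At E13.25 the ratio of Cela1 was 0.0222% to 0.119% and that of Cela3b 0.152% to 2.81%, the latter in a plate with 1.91 CPM in Cpa1-high cells. A threshold at the highest mesenchymal-gate value of each gene and plate lay below 50 CPM for most genes (2.07 to 5.12 CPM for Try4) and above it in every plate for Cela1 and Amy2b. It left Cela1 on in 98.2% and Amy2b in 93.9% of Cpa1-high cells.

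Most E15.25 Cpa1-high cells held most of the enzymes at once. The median cell had 8 of the 10 genes on (8 in tip 1, 7.5 in tip 2 and 8 in trunk 2). All 10 were on in 22 cells, 52 had 7 to 9, 22 had 4 to 6, 10 had 1 to 3 and 1 cell, in tip 1, had none. In the 10 cells with 1 to 3 on, Cela1 was on in 10 and Amy2b in 9, while Prss2 was on in 3 and Try5, Try10 and Cela3b in 1 each. Prss1, Prss3, Try4 and Cela2a were on in 0 of these 10. In the 22 cells with 4 to 6 on, Cela3b was on in 16 and Prss2 and Try10 in 13 each. In the 52 cells with 7 to 9 on, Try10 was on in 52, Prss1 in 47, Prss3 in 22 and Try4 in 10. The median Cpa1 level of these groups went from 5420 CPM (1 to 3 on) over 8612 and 12476 CPM to 19594 CPM (all 10 on).

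The order between genes was read pair by pair, from cells in which 1 of the pair was on and the other was not. In each plate the first of a pair is by construction the one on in more cells, so this order restates the ranking of shares. It is no separate evidence of a sequence of onset. Of the 45 pairs, 35 had the same order in all 3 E15.25 plates. Cela1 and Amy2b each came before 8 other members, Try10 and Cela3b each before 5, Prss2 before 3, and Prss1, Try5 and Cela2a each before 2. Prss3 and Try4 came before none. Amy2b was also on in 8 of 57 mesenchymal-gate cells, and the order was not read at the threshold set by those cells. At 200 CPM, above every mesenchymal-gate value, Amy2b came before 8 other members. Try10 without Prss1 was seen in 15 cells and Prss1 without Try10 in 1. Cela3b without Cela2a was seen in 13 cells and the reverse in 2. Of the 48 cells with Prss3 on, 47 also had Try10 on, 48 had Amy2b on and 48 had Cela1 on. Cela1 and Amy2b could not be ordered (4 cells against 1), nor could Prss2 and Try10 (10 against 15), Prss1 and Try5 (11 against 10) or Try10 and Cela3b (9 against 9).

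A fixed CPM threshold mixes how many cells hold a gene with the level and the length of that gene. With each gene's own threshold, 30 of 45 pairs had 1 order in every plate, and all 24 pairs ordered under both thresholds kept the same first member. Under that threshold Cela1 came before 9 other members, Amy2b before 7, and Try10, Cela3b and Cela2a each before 4. Prss1 and Try5 each came before 1, and Prss2 before none, so the places of Prss2 and Cela2a depend on the threshold. With each cell thinned to 100000 reads, 35 pairs had 1 order, and 34 of 34 shared pairs kept the first member. The cells are a snapshot of each plate, and an order among cells is not a time course.

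The early counts of some genes did not follow the late order. Prss2 was on in 18 of 54 early cells and Try10 in 0 of 54, in every early plate with Prss2 ahead (4, 3, 6 and 5 cells against 0). In late cells Try10 and Prss2 were on in 88 and 83 of 107 cells and had no order in common to the plates. Amy2b was on in fewer early cells (4) than Prss2 (18), Cela2a (7) or Cela3b (6), and late it came before all 3 in every plate. By early plate Amy2b was on in 0, 2, 0 and 2 cells, Cela2a in 3, 2, 0 and 2, and Cela3b in 3, 2, 0 and 1, so that plate 1 alone set Amy2b behind both elastases. These are counts of cells with no test of the difference.

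Cpa1 level went with the share of cells that held most members. Cpa1-high cells of each plate were split into terciles of Cpa1. From the lower to the upper tercile, Cela2a went from 48.3% ± 6.01 to 93.3% ± 11.5 of cells on (SD, n = 3 plates), and Try5 from 56.1% ± 5.36 to 89.5%. Try10 went from 71.7% ± 14.2 to 97.6%, Try4 from 17.8% ± 11.7 to 51.4% and Cela3b from 68.9% ± 10.2 to 93.3%. Cela1 (95% and 100%) and Amy2b (95% and 96.7%) were on in nearly all cells at any Cpa1 level. Prss3 did not move one way: it went from 53.3% to 42.9% in tip 1 and from 41.7% to 72.7% in trunk 2. The upper tercile was above the lower in all 3 plates for 6 of the 10 members. The cells of the lower tercile also had fewer reads, with a median of 287140 against 997010 in tip 2 and 283740 against 842300 in trunk 2, and the part of depth was not tested by tercile. Over all 107 cells, thinning each to 100000 reads changed no member's share by more than its SD over plates except that of Prss2 (79.6% against 77.4%).

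**Figure D4:**
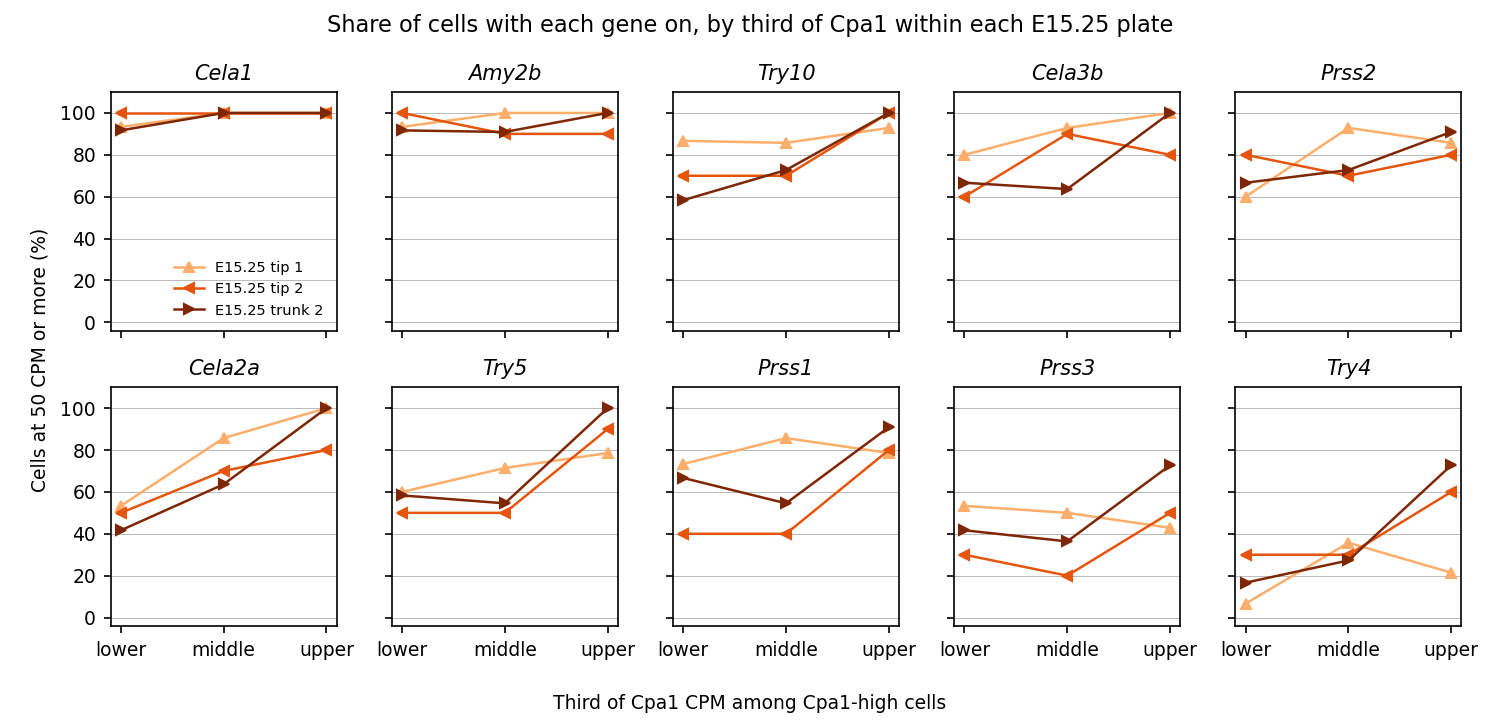
Each panel is a gene, the horizontal axis gives the tercile of Cpa1 within a plate and the vertical axis the percent of cells at 50 CPM or more, with 1 line per E15.25 plate. Cela1 and Amy2b lie between 90% and 100% throughout, while Cela2a lies between 41.7% and 53.3% in the lower tercile and between 80% and 100% in the upper.

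Between tip and trunk plates of E15.25, no member was called among Cpa1-high cells. The fit used 3 groups, with the single trunk plate assumed to vary like the others, and called 0 of 19629 genes (0%, edgeR quasi-likelihood). At an unadjusted p under 0.05 it held 278 genes, and DESeq2 called 30 genes, none of them a member. Prss3 had the lowest unadjusted p of the members, with 207 and 193 CPM in the tip plates against 480 CPM in the trunk plate (log2 difference -1.23 ± 0.36, SE; unadjusted p = 0.0244, edgeR adjusted p = 1). Prss2 had 850 and 1518 CPM in tip against 461 CPM in trunk (log2 difference 1.39 ± 0.998, SE; edgeR adjusted p = 1). The standard errors of the other 8 members, 0.35 to 2.39, were larger than their differences. With 1 trunk plate the fit had little power for differences of this size, so the absence of calls does not show that the members were alike, and a difference between the regions and one between these plates cannot be told apart.

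Across single Cpa1-high cells of E15.25, most pairs of trypsinogens had a higher correlation than any trypsinogen had with Cela1, but this did not hold for Cela2a. Correlations are Spearman's rho of CPM, as means over the 3 plates (43, 30 and 34 cells), given as description. The 15 pairs of trypsinogens had a median rho of 0.57, highest for Prss1 with Try10 and Try4 with Try10 (0.78 each) and lowest for Prss2 with Prss3 (0.27). Shared reads can add to these values. Prss2, which shares few windows with the others, had rho of 0.53 to 0.57 with Prss1, Try4, Try5 and Try10. Cela2a and Cela3b, which share no 50-base window with each other, had 0.74. Cela1 had 0.42 with Cela3b and 0.47 with Amy2b but 0.08 with Prss3, 0.11 with Try4 and 0.17 with Prss1. Cela2a had 0.52 to 0.62 with the trypsinogens other than Prss3 (0.39), close to the median among trypsinogens. The cells of a plate differ in depth, and the mean log2 level of the members had a rho of 0.41, 0.47 and 0.18 with reads per cell in tip 1, tip 2 and trunk 2.

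**Figure D5:**
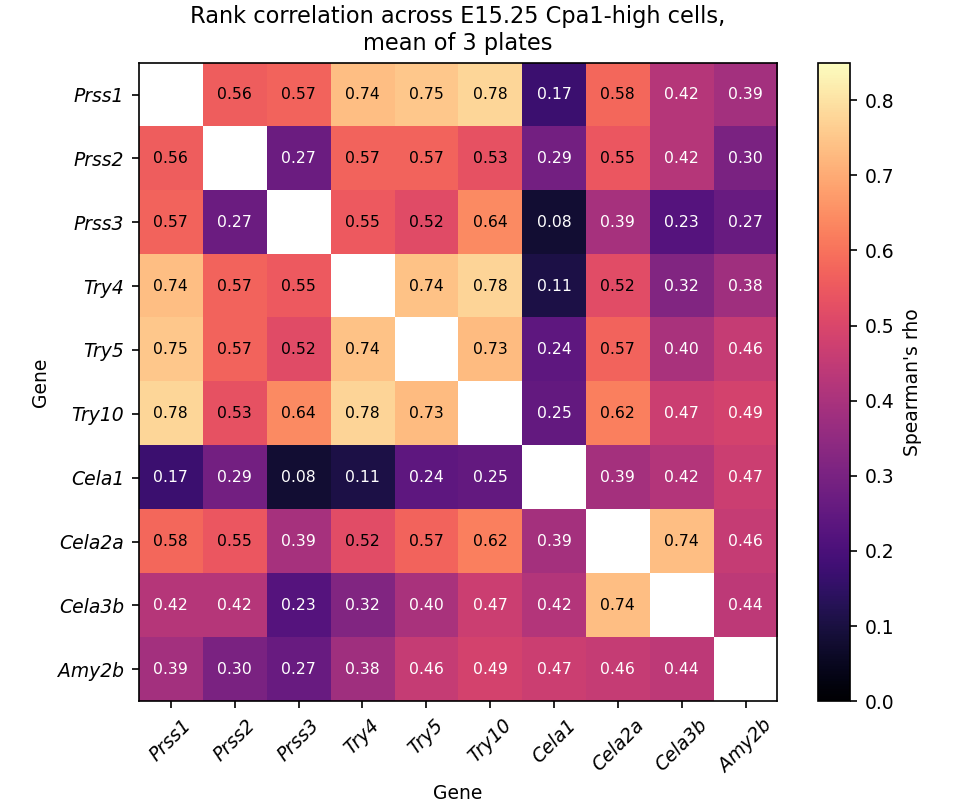
Each square gives Spearman's rho of 2 genes across E15.25 Cpa1-high cells, as the mean of the 3 plates, on a colour scale from 0 to 0.85. Pairs of trypsinogens are bright apart from Prss2 with Prss3 (0.27), the Cela1 row is dark towards the trypsinogens, and the Cela2a row is bright towards most of them.

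Genes other than the members and their listed trypsinogen, amylase, elastase and chymotrypsin relatives were ranked by their mean rho with the mean log2(CPM + 1) of the 10 members, over 7643 genes at 10 CPM or more in every late plate. The closest were Clps, the colipase that anchors pancreatic lipase (0.64), Ero1lb, an oxidase for disulfide bonds in the endoplasmic reticulum (0.63), Spink1, a trypsin inhibitor (0.63), Cel, a lipase (0.62), and Gc, the vitamin D binding protein (0.62). Serpini2 (0.60), Pnliprp1 (0.59), the disulfide isomerase Pdia2 (0.58), Fkbp11 (0.54) and Aqp8 (0.53) followed. The lowest were Ptn (-0.52), Tubb5 (-0.51), Hsp90aa1 (-0.49), Tuba1a (-0.47), Spp1 (-0.46), Rps20 (-0.46), Gm14277 (-0.46), Grb10 (-0.45), Vim (-0.44) and Marcksl1 (-0.43). Spp1 marks trunk and duct cells, and Vim is a filament gene of mesenchyme and immature cells. The median over all these genes was -0.01. The relatives left out of the ranking reached 0.84 among the trypsinogens, 0.64 among the amylases and 0.76 for Ctrb1.

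Single members differed in their nearest genes. Gc was 1 of the 2 nearest for Prss1, Prss3, Try4, Try5 and Try10, with rho between 0.36 and 0.63. Pnliprp1 was nearest for Cela1 (0.65) and Amy2b (0.68), and Spink1 for Cela2a (0.70) and Cela3b (0.69). Prss2 was nearest to Serpini2 (0.53) and Fkbp11 (0.49).

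Other lists of acinar genes moved with the members to different degrees. All 10 measured early enzymes had a positive rho in every plate, with a median of 0.45 and the highest for Ctrb1 (0.76). Of 9 measured acinar transcription factors, 6 were positive in every plate, led by Bhlha15 (0.37) and Rbpjl (0.32), while Nr5a2 stood at 0.00. Of 10 measured zymogen granule and secretory genes, 9 were positive in every plate. All 10 cell cycle genes were negative in every plate, but weakly, with a median of -0.16. Of all 7643 genes, 1235 were positive and 1523 negative in every plate.

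In the age comparison of Cpa1-high cells, 5 of 11 early enzymes, 6 of 11 zymogen granule and secretory genes and 1 of 11 acinar transcription factors were called higher at E15.25, with median log2 differences of 2.44, 4.82 and 0.99. None of the 10 cell cycle genes was called. Of 8 tested trunk and duct genes 3 were called higher. Of 15 tip and multipotent progenitor genes 3 were called lower, as were 3 of 7 measured trypsin inhibitors, against 108 of all 15366 genes. Those 3 inhibitors were Serpina1b, Serpina1c and Serpina1e, while Spink1 (log2 difference 0.23) and Serpini2 (2.33) were not called. The 10 members' median of 6.33 lay above that of each of these lists. It lay below the medians of the 5 tested trypsinogen paralogs (7.09) and the 6 amylase paralogs (7.65). The 4 elastase and chymotrypsin relatives had a median of 3.13. As the lists were chosen with earlier results known, the difference between lists was not tested.

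Below the Cpa1 gate, 9 E15.25 cells held a member above 200 CPM. A cell of tip 2 (well 57) had 1296 CPM of Cela1 and 1328 CPM of Amy2b with 265 CPM of Cpa1, and under 3 CPM of each trypsinogen. A cell of tip 1 (well 19) had 1829 CPM of Cela1, 533 CPM of Try10 and 294 CPM of Cela3b with 334 CPM of Cpa1. A trunk 2 cell (well 70) had 228 CPM of Prss1 with 240 CPM of Cpa1. The median Cpa1 level of mesenchymal-gate cells was 154 to 212 CPM in the late plates, so Cpa1 values in this range lie close to the background.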

How the data were processed

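Single cells were sequenced from 4 plates of E13.25 and 3 plates of E15.25 mouse pancreas. The authors deposited raw read counts per Ensembl gene for each cell, made with GSNAP and HTSeq 0.5.3p3 on mm10, per the submitters' processing notes. Which gene annotation was counted, whether strand was used and how multiply placed reads were treated is not given in the sources used here. Cells with fewer than 100000 reads on genes, fewer than 1500 genes or over 20% mitochondrial reads were left out, and spike-in and unassigned rows stayed out of all totals. There were no molecular identifiers, so intervals and limits cover counting error only.

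Counts were summed per plate over all kept cells, and over Cpa1-high cells, and tested with edgeR 4.0.16 (R 4.3.3; TMM, quasi-likelihood, Benjamini-Hochberg over all genes tested). DESeq2 1.42.0 was an alternative, with other filters, thresholds, gates, scalings and left-out plates. The scripts were tested on simulated data. Members and gene lists were chosen with earlier results of these data known. Beside the 10 members, the text names the 10 genes with the highest and the 10 with the lowest mean correlation with the members (listed paralogs and relatives left out), the 2 nearest to each member, and genes of the lists. Sequences came from RefSeq (GRCm38.p6) and GENCODE vM21.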

Additional observations from a re-analysis of the deposited data

Results flagged for a closer look

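In whole plates of E13.25, Try5 stood at 40.02 CPM in plate 4, while the other 3 plates of that age held 0.0469 to 5.38 CPM. The gap to the nearest plate was 0.867 of the whole range, above Dixon's 95% critical value for 4 samples. In plate 4, 1 cell held 3999 of the 5064 Try5 reads of this age. In all, 18 series of 4 plates were tested and 1 exceeded the limit, and chance alone does so in about 1 in 20.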

How the results depend on the processing

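Among 18 alternatives of the age comparison in Cpa1-high cells (1 fit counted under 2 names), no member's direction reversed, and Prss1 and Try10 were called in every one. The 7 members called there became 2 with a term for E13.25 plates 1 to 3, 4 with the Cpa1 gate at 3000 CPM, and 5 to 7 when a plate was left out. The fit at 3000 CPM held 5 plates, because E13.25 plates 1 and 2 fell under the minimum of 5 cells. Gate and loss of plates cannot be told apart in it. In whole plates the 7 became 4 on dropping the top 5% of cells by gene number, 1 with the plate term, and 2 (without tip 1) to 6 (without E13.25 plate 4) when a plate was left out. Over all genes, the Cpa1-high fit called 232 higher and 108 lower, against 798 and 795 with DESeq2, 5 and 1 with the plate term, 48 and 19 at the 3000 CPM gate, and 102 and 45 without the cells with the most genes. In whole plates 97 and 44 became 988 and 1142 with DESeq2, 349 and 217 when cells were scaled to equal totals, 44 and 19 without the cells with the most genes, and 1 and 0 with the plate term. The median share of cells on, 74.8%, was 89.8% at 10 CPM, 50.8% at 200 CPM, 79.8% above the highest mesenchymal-gate value, 57.99% at each gene's own threshold, 54.4% with the Cpa1 gate at 300 CPM and 79.2% at 3000 CPM. The tip against trunk difference of Prss1, -0.05, was 0.18 with the gate at 300 CPM and -0.13 to 0.020 when a tip plate was left out, and no fit called it. The causes were not tested. No paired analysis was possible because the plate numbers name different pancreases and buds at the 2 ages, and tip and trunk share only bud 2. The number of cells limits the shares at E13.25, where 0 of 54 cells allows up to 5.56%. The plate term and the other fits that leave out single cells were chosen after seeing the data.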

Other observations

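Most of the listed trypsinogen, amylase, elastase and chymotrypsin relatives of the members also had more reads at E15.25. Over kept cells, Gm5771 had 94 reads at E13.25 and 29649 at E15.25, Gm10334 had 244 and 25651, and Gm5409 had 13 and 4433. Among the amylases, Amy1 had 1021 and 16736 reads, Amy2a3 had 156 and 23502, and Amy2a5 had 7 and 5525. By contrast the trypsinogen relative Gm2663 had 377 and 256 reads, and Ctrl had 970 and 896. Cela3a, the copy that shares windows with Cela3b, had 32 and 917 reads. Chymotrypsinogen B1 (Ctrb1) had 544242 and 6915863. These are read totals of unequal cell numbers, given without a test.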
